A study of Homo sapiens with 6 samples.

Results

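The BCL2 family decides whether the mitochondria of a cell release the proteins that start apoptosis. Its 10 best-known genes were followed here in A2780, a human ovarian cancer cell line, with and without recombinant human CRMP2 (r-CRMP2). CRMP2 is a microtubule-associated protein that the study examined as a factor secreted by cancer associated fibroblasts. The members were taken by name: BCL2, BCL2L1, MCL1, BAX, BAK1, BAD, BID, BCL2L11, BBC3 and PMAIP1, which are 10 of the 44591 genes listed, and all 10 passed the filter on low counts. The control group was 3 samples of untreated wild-type cells and the other group 3 samples of the same cells given r-CRMP2 at 40 ng/ml, both labelled 48 h. Every library came from the same cell line grown in the same serum-containing medium, and polyadenylated RNA was sequenced. No source used here states that the 3 samples of a group were grown apart from each other, so the p-values measure only the spread between these samples, which may be technical. RNA alone was measured, and in bulk samples fewer cells that express a gene and less of its RNA per cell cannot be told apart.

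The family falls into 3 roles. Guardians (BCL2, BCL2L1, which encodes BCL-xL, and MCL1) hold the pore-forming proteins in check. Effectors (BAX and BAK1) assemble into pores in the outer mitochondrial membrane, through which cytochrome c leaves to activate the caspases. BH3-only proteins are the sensors: BIM (BCL2L11), BID and PUMA (BBC3) bind all the guardians and can activate the effectors, whereas BAD binds BCL2 and BCL-xL and NOXA (PMAIP1) binds chiefly MCL1. MCL1 protein turns over within hours, and its amount was not measured here.

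What the members share in sequence is the BH3 core, a short helix. That of the BH3-only proteins and effectors docks into the groove of a guardian. The codons of the BH3 core are shown for each member because they are the feature that makes these genes a family. They were read from the GENCODE transcripts (GRCh38). The search looked for a leucine, any 3 residues, an alanine, glycine or serine, an aspartate, and then an aspartate, glutamate, glycine, lysine or serine. It found 1 match in the principal protein of each member, but the pattern was written from the known cores of these genes, and 14.5% of the 19514 proteins searched hold a match. In the 45 bases of each line, the capitals mark the codons of the invariant leucine and aspartate.
BCL2: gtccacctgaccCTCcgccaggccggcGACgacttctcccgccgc
BCL2L1: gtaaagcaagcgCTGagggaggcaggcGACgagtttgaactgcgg
MCL1: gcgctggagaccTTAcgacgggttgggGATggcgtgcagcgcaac
BAX: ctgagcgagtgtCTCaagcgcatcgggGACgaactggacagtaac
BAK1: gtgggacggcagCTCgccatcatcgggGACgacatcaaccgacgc
BAD: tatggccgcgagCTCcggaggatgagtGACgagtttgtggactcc
BID: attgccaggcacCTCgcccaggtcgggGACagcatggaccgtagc
BCL2L11: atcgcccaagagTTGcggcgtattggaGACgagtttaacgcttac
BBC3: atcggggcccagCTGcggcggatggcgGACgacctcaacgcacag
PMAIP1: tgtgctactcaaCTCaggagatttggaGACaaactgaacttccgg

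Each stretch lies within 1 coding exon. That of MCL1 is in exon 1 of 3 (chr1:150578862-150578906, minus strand), that of BCL2 in exon 2 of 3 (chr18:63318346-63318390, minus strand) and that of BCL2L1 in exon 2 of 3 (chr20:31721919-31721963, minus strand). The stretch of BBC3 is in exon 3 of 4 (chr19:47226576-47226620, minus strand), and that of PMAIP1 in exon 2 of 2 (chr18:59902661-59902705, plus strand). The invariant leucine of PMAIP1 is codon 29 of a protein of only 54 codons. The members have between 2 and 17 protein-coding transcripts each in GENCODE. The deposited counts are summed over a gene, so splice forms with opposed functions, such as BCL-xL and BCL-xS of BCL2L1, could not be separated.

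Library totals ranged from 21888530 to 25711353 counts, with no library far from the others. The epithelial keratins KRT7, KRT8 and KRT18 were abundant, while CDH1 and WT1 had at most 5 counts in any library. The summed level of 9 epithelial and ovarian markers was 4202 to 4412 TPM (a count per length, rescaled so that every library has the same total) in untreated and 3439 to 3769 TPM in r-CRMP2 libraries. Of 8 fibroblast markers, FAP had at most 9 counts. COL1A1 was highest, with a mean of 172 TPM untreated and 104 TPM with r-CRMP2. The sum of the 8 was 226 to 266 TPM against 158 to 170.3 TPM. The sum of 7 leukocyte and endothelial markers was 6.52 to 6.99 TPM against 2.62 to 2.88 TPM. Over all genes tested, the median log2 fold change with TPM in limma was -0.31, so these sums are on a scale where most genes were lower. In the TMM fit given below, the median of the genes tested was 0.03 for the epithelial and ovarian list. It was 0.21 for the fibroblast list and -0.93 for the leukocyte and endothelial list. Whether the marker levels bear on the members was not tested.

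The members did not move as a block: MCL1 rose steeply while BCL2 and BCL2L1 fell, and 4 members of the pro-apoptotic side rose. At an adjusted p-value of 0.05 (edgeR's quasi-likelihood test, Benjamini-Hochberg adjustment over the 16222 genes tested), MCL1, BBC3, PMAIP1, BAK1 and BID were upregulated, BCL2 and BCL2L1 were downregulated, and BAX, BAD and BCL2L11 did not pass. So 5 of 10 members were higher, against 28.2% of all genes tested, and 2 of 10 lower, against 30.1%. MCL1 and BBC3 also passed a log2 fold change of 1, as 14.0% of all genes tested did in either direction. In 8 of 10 members the groups did not overlap in CPM (the count over the library total, with TMM factors that centre the bulk of the genes), which held for 64.2% of all genes. The median log2 fold change of the members was 0.22, with a range from -0.80 to 1.53, beside -0.03 over all genes tested, and their median absolute value was 0.57 beside 0.39. When libraries were scaled by their totals alone, without TMM factors (below, library size alone), 3 members were higher (MCL1, BBC3 and PMAIP1) and 5 lower (BAX, BAD and BCL2L11 joined BCL2 and BCL2L1). That scaling moved the median of all genes from -0.03 to -0.34 on the log2 scale and the calls from 4574 higher and 4875 lower to 2173 and 8439.

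**Figure D1:**
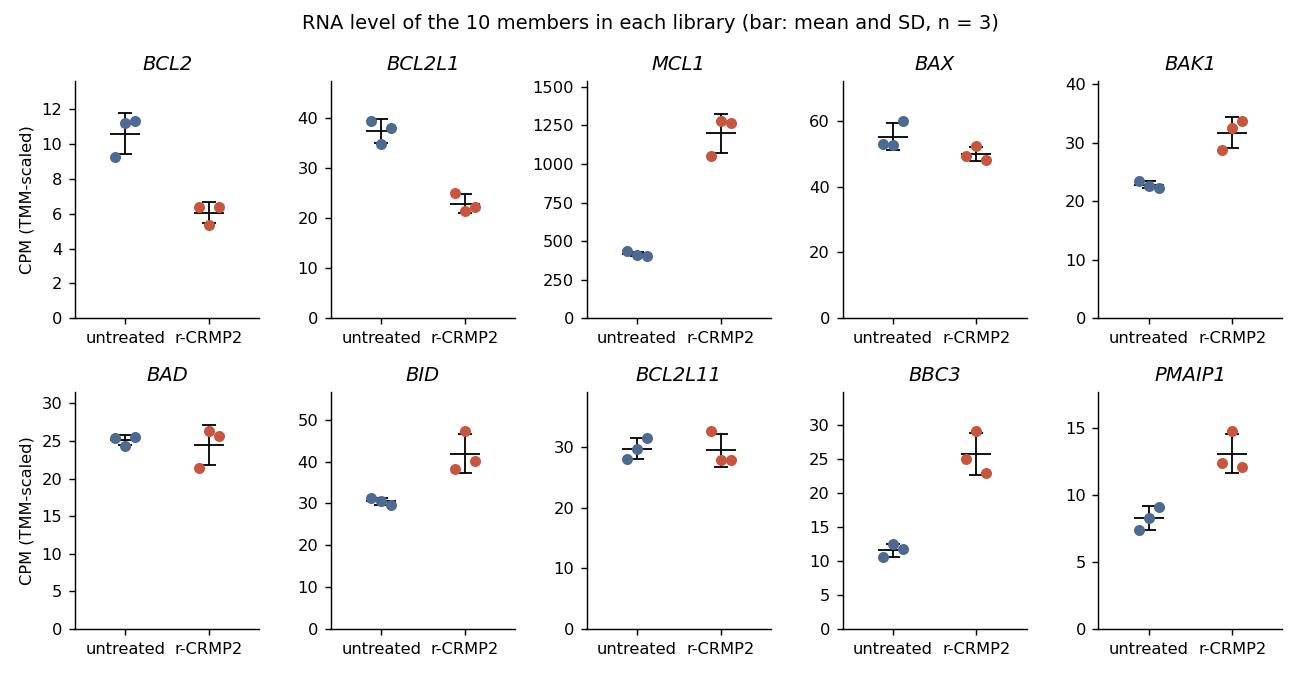
CPM after TMM scaling (linear axes from 0, 1 panel for each member) in the 3 untreated and 3 r-CRMP2 libraries. Points are libraries and bars the mean and SD. MCL1 and BBC3 lie more than 2-fold higher with r-CRMP2, BCL2 and BCL2L1 lie lower in all 3 libraries, and the groups overlap for BAD and BCL2L11.

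Among the guardians, MCL1 (chr1:150547027-150552214, minus strand, in the deposited coordinates, for which the submitters' processing notes name hg19) was the most abundant member in every library. Its untreated libraries measured 434, 410.4 and 405 CPM, and those with r-CRMP2 1055, 1282 and 1263 CPM. All 3 treated libraries were more than 2 times as high as any untreated library. The untreated mean was 416 ± 15.6 CPM (SD, n = 3) and the treated mean 1200.0 ± 126 CPM (SD, n = 3), a 2.88-fold rise (log2 fold change 1.53, standard error 0.10, adjusted p = 4.81e-12, edgeR). Its log2 fold change was above that of 97.9% of the genes tested. With 10084 to 29054 counts per library, counting error contributed a standard error of 0.00947 on the log2 scale, against 0.10 for the spread between libraries. The rise was 1.21 on the log2 scale with library size alone.

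BCL2 (chr18:60790579-60986613, minus strand), the founding member, had the lowest TPM of the members in every library. In CPM, which is not divided by length, PMAIP1 was lower than BCL2 in the untreated libraries. BCL2 measured 9.26, 11.2 and 11.4 CPM without and 6.40, 5.35 and 6.39 CPM with r-CRMP2. Every treated library was thus below every untreated one. The difference was -0.80 on the log2 scale (standard error 0.13, adjusted p = 3.68e-05, edgeR). BCL2 had only 106 to 311 counts per library, and counting error alone gave a standard error of 0.09 on the log2 scale.

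BCL2L1 (chr20:30252255-30311802, minus strand) measured 39.6, 34.9 and 38.1 CPM in untreated and 25.1, 21.5 and 22.3 CPM in treated libraries. The groups were again apart, by -0.71 on the log2 scale (standard error 0.09, adjusted p = 6.14e-07, edgeR). The antisense transcript ABALON lies within the deposited span of BCL2L1 and also fell (log2 fold change -0.85, adjusted p = 1.54e-05, edgeR). Whether reads were counted by strand is not given in the sources used here, so the reads of the pair cannot be told apart. BCL2 and BCL2L1 fell further with library size alone, to -1.11 and -1.02 on the log2 scale.

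The effectors went separate ways. BAK1 (chr6:33540323-33548070, minus strand) measured 23.5, 22.6 and 22.3 CPM in untreated and 28.7, 32.5 and 33.8 CPM in r-CRMP2 libraries, with no overlap. The rise was 0.47 on the log2 scale (standard error 0.07, adjusted p = 6.62e-05, edgeR), but only 0.16 with library size alone (adjusted p = 0.0918, edgeR), where it did not pass. The pseudogenes BAK1P1 and BAK1P2 had at most 18 and 1 counts in a library, against 556 or more for BAK1. BAX (chr19:49458117-49465055, plus strand) measured 53.0, 52.6 and 60.1 CPM untreated and 49.2, 52.4 and 48.2 CPM with r-CRMP2. The highest treated library lay just under the lowest untreated one, and the difference of -0.15 on the log2 scale did not pass (standard error 0.07, adjusted p = 0.0948, edgeR), although it was -0.46 and passed with library size alone (adjusted p = 4.51e-05, edgeR).

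Of the BH3-only genes among the members, BBC3 (chr19:47724079-47736023, minus strand), which encodes PUMA, changed most. It measured 10.6, 12.5 and 11.8 CPM in untreated and 25.0, 29.1 and 23.0 CPM in treated libraries. The lowest treated library was well above the highest untreated one, and the rise was 2.21-fold (log2 fold change 1.15, standard error 0.12, adjusted p = 1.83e-08, edgeR). It was 0.84 on the log2 scale with library size alone.

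PMAIP1 (chr18:57567192-57571538, plus strand), the gene of NOXA, measured 7.36, 8.30 and 9.13 CPM without and 12.3, 14.7 and 12.1 CPM with r-CRMP2. The groups did not overlap, and the rise was 0.66 on the log2 scale (standard error 0.13, beside 0.075 from counting alone; adjusted p = 0.000133, edgeR). With library size alone it was 0.35 and still passed (adjusted p = 0.0223, edgeR).

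BID (chr22:18216906-18257431, minus strand), which caspase-8 cleaves to link death receptors to mitochondria, measured 31.3, 30.6 and 29.7 CPM untreated and 38.3, 47.3 and 40.1 CPM treated. All treated libraries were higher, with replicate 2 the highest (log2 fold change 0.45, standard error 0.09, adjusted p = 0.000105, edgeR). With library size alone the change was 0.14 and did not pass (adjusted p = 0.129, edgeR).

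BAD and BCL2L11 gave overlapping groups. BAD (chr11:64037300-64052176, minus strand) measured 25.4, 24.4 and 25.6 CPM untreated and 21.4, 26.3 and 25.7 CPM treated, with r-CRMP2 replicate 1 the lowest (log2 fold change -0.04, standard error 0.10, adjusted p = 0.714, edgeR). The end of BAD overlaps GPR137 on the opposite strand, which fell (log2 fold change -0.49, adjusted p = 0.000251, edgeR), and the reads of this pair cannot be told apart either, so the values of BAD and of its ratio are uncertain. BCL2L11 (chr2:111878491-111926022, plus strand), the gene of BIM, measured 28.1, 29.6 and 31.5 CPM untreated and 32.6, 27.9 and 27.8 CPM treated (log2 fold change -0.01, standard error 0.09, adjusted p = 0.892, edgeR). Both were lower with library size alone (-0.35 and -0.32, adjusted p = 0.00188 and 0.00542, edgeR), so whether they differed depended on the scaling.

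**Figure D2:**
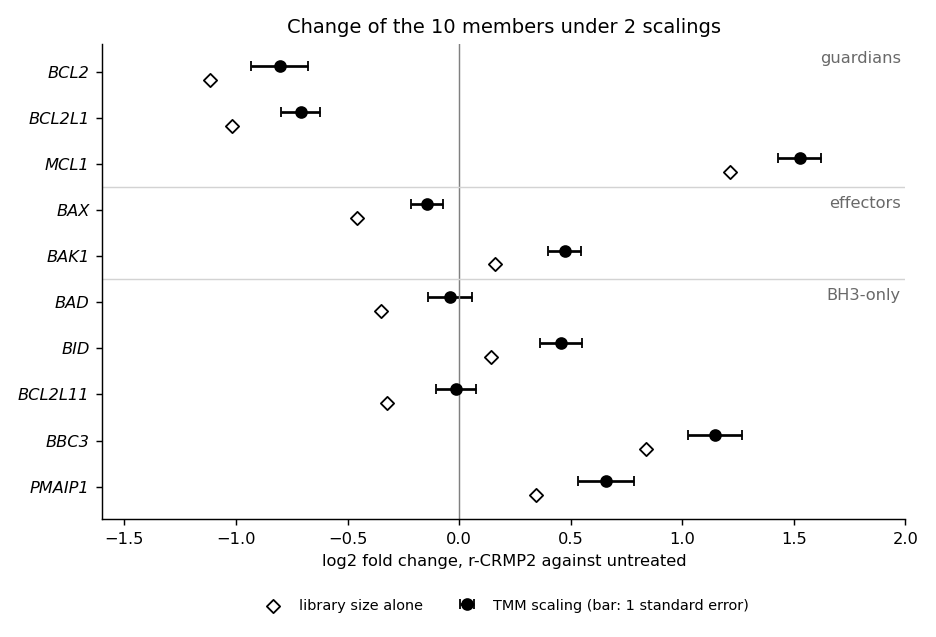
Log2 fold change of each member, r-CRMP2 against untreated, by role. Filled points are the TMM fit with 1 standard error, and open diamonds the fit with library size alone, which shifts all members to the left by about the same amount. MCL1, BBC3 and PMAIP1 stay to the right, BCL2 and BCL2L1 to the left, and BAK1 and BID come close to 0.

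Levels of different genes can be compared only per length, for which the deposited TPM were used. In untreated cells the order was MCL1 (249 ± 6.18 TPM, SD, n = 3), BAX (103 ± 8.29), BAD (50.1 ± 1.02), BID (28.0 ± 0.610), BCL2L1 (27.2 ± 1.37), BAK1 (25.4 ± 0.385), BBC3 (13.5 ± 1.31), BCL2L11 (11.7 ± 0.792), PMAIP1 (10.4 ± 1.22) and BCL2 (3.91 ± 0.480). The neighbours BID and BCL2L1, BCL2L1 and BAK1, BBC3 and BCL2L11, and BCL2L11 and PMAIP1 overlapped between libraries and have no firm order. By mean TPM over the 6 libraries, MCL1 was number 321 and BCL2 number 12228 of the 16222 genes tested.

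With r-CRMP2 the order in the middle changed. BCL2L1 (13.3 ± 1.67 TPM, SD, n = 3) moved from place 5 to place 7, below BBC3 (23.8 ± 2.07 TPM), and overlapped PMAIP1 (13.1 ± 0.917 TPM). The ends of the order stayed with MCL1 (571 ± 43.1 TPM) and BCL2 (1.78 ± 0.253 TPM).

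MCL1 dominated the RNA of the 10 members in both groups and more so with r-CRMP2. It made up 49.1%, 47.9% and 45.9% of the 10 members' summed TPM in untreated libraries, but 69.2%, 71.1% and 72.4% with r-CRMP2. Of the 3 guardians among the members, MCL1 was 88.9% ± 0.457 (SD, n = 3) and became 97.4% ± 0.491 (SD, n = 3). BCL2L2, a guardian outside the 10 members, is left out of this sum. It had a mean of 20.8 TPM untreated and 23.2 TPM with r-CRMP2, so the shares would be lower with it. BCL2L1 went from 9.71% ± 0.448 to 2.29% ± 0.439 of the TPM of the same 3 guardians, and BCL2 from 1.40% ± 0.199 to 0.307% ± 0.0556 (SD, n = 3 in each). These shares lie within a library and do not depend on scaling. The summed TPM of the BH3-only members was 110.2 to 116 untreated and 112 to 121 treated, with overlapping groups. That of BAX and BAK1 was 123 to 138 untreated and 101.7 to 103 treated. Summed TPM are not TMM-scaled, and on this scale the bulk of genes was lower with r-CRMP2.

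**Figure D3:**
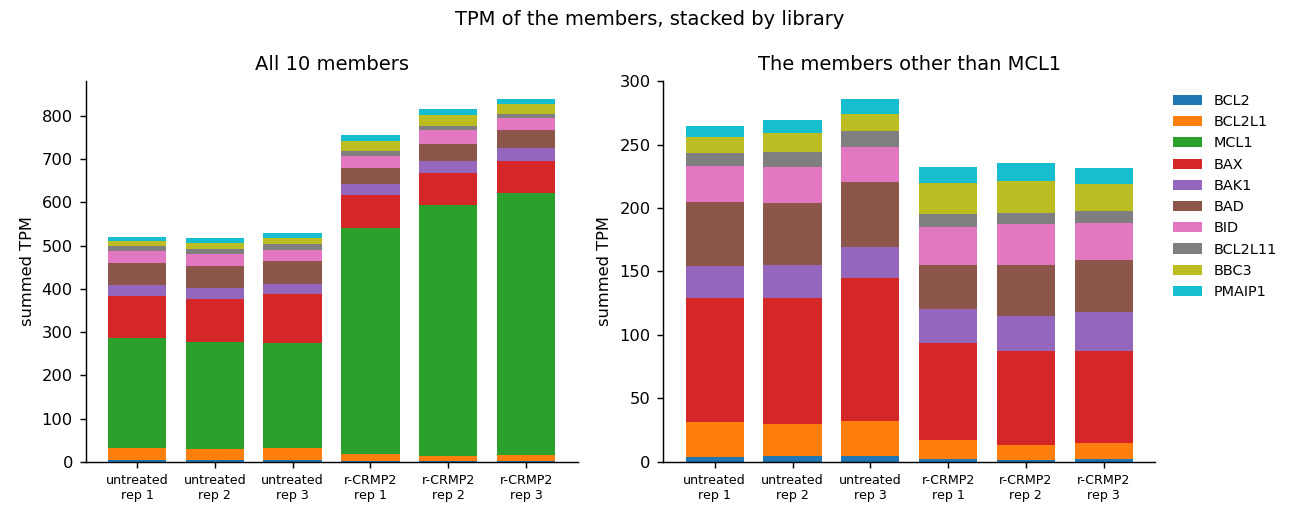
Summed TPM of the members in each library, stacked by gene (left, all 10; right, the 9 other than MCL1, on its own axis). The MCL1 segment grows from 45.9% to 49.1% of the stack in untreated libraries to 69.2% to 72.4% in r-CRMP2 libraries, while the other 9 together go from 265 to 286 TPM down to 231 to 236 TPM.

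Because the guardians bind different partners, 6 ratios of a pro-apoptotic gene to a guardian were computed within each library. A ratio of 2 genes of 1 library is free of any library scaling. The pairs were chosen with results of these genes known, so no p-value is given. Each ratio follows from the changes of its 2 genes given above and is not a separate result. With MCL1 as the partner, both ratios were lower with r-CRMP2. The log2 ratio of BAK1 to MCL1 was -3.31, -3.28 and -3.28 untreated and -4.30, -4.40 and -4.33 treated, a difference of -1.05 (standard error 0.03). That of PMAIP1 to MCL1 was -4.80, -4.55 and -4.39 against -5.34, -5.36 and -5.63, a difference of -0.86 (standard error 0.15), although PMAIP1 itself had risen.

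With BCL2 or BCL2L1 as the partner, all 4 ratios were higher with r-CRMP2. The log2 ratio of BBC3 to BCL2L1 was -1.22, -0.80 and -1.01 untreated and 0.68, 1.13 and 0.73 treated (difference 1.86, standard error 0.18). In TPM, BBC3 was thus below BCL2L1 in all 3 untreated libraries and above it in all 3 treated ones. Where the ratio crosses 0 depends on the deposited gene lengths: r-CRMP2 replicate 1 had 535 counts of BBC3 and 536 of BCL2L1. The reads of BCL2L1 also cannot be told apart from those of ABALON. The ratio of BAX to BCL2 was 4.86, 4.57 and 4.75 against 5.29, 5.63 and 5.26 (difference 0.67, standard error 0.15). That of BCL2L11 to BCL2 differed by 0.79 (standard error 0.10) and that of BAD to BCL2L1 by 0.67 (standard error 0.17). BAX, BCL2L11 and BAD did not pass themselves, so their ratios mostly restate the falls of BCL2 and BCL2L1. In none of the 6 ratios did the groups overlap. The denominators MCL1, BCL2 and BCL2L1 did not overlap in CPM either, nor did 64.2% of all genes tested. No such share was computed for ratios of other genes.

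**Figure D4:**
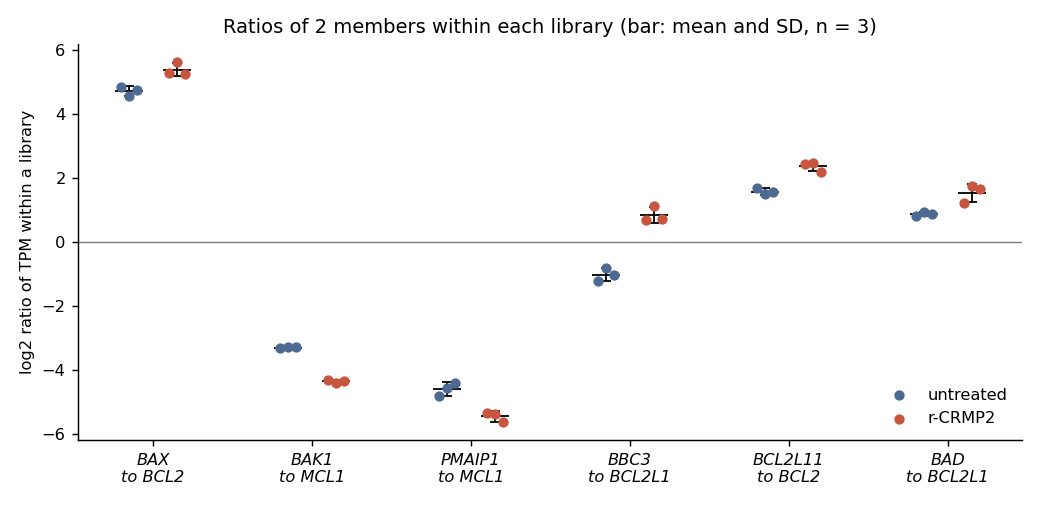
Log2 ratio of the TPM of 2 members within each library (points), with the mean and SD of the 3 libraries of a group. The ratios to MCL1 are lower with r-CRMP2 and those to BCL2 or BCL2L1 higher, and the BBC3 to BCL2L1 ratio crosses 0, the level at which both genes have equal TPM.

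The other 13 genes of the wider BCL2 family also moved in both directions. Of these, 9 passed the low-count filter, 4 were higher and 2 lower (28.2% and 30.1% of all genes tested), with a median log2 fold change of -0.03. With library size alone, 3 were higher and 4 lower. BIK, a BH3-only protein of the endoplasmic reticulum, rose from 2.84, 2.69 and 2.59 to 7.53, 9.79 and 7.78 CPM (log2 fold change 1.62, standard error 0.12, adjusted p = 5.97e-08, edgeR), with a counting error nearly as large as its standard error. BNIP3 and BNIP3L, mitochondrial outer membrane proteins with an atypical BH3 region that act as mitophagy receptors, rose by 0.93 and 1.10 on the log2 scale (adjusted p = 3.75e-09 and 6.51e-11, edgeR). BNIP3 had 442 TPM in untreated cells, above MCL1. BCL2L2, the guardian BCL-w, had a log2 fold change of 0.48 (adjusted p = 1.96e-05, edgeR), which did not pass with library size alone (0.17). Its deposited span lies inside that of the readthrough gene BCL2L2-PABPN1 (log2 fold change 0.48), so its reads are uncertain.

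The falls of BCL2L12 and BCL2L13 were small (-0.29 and -0.24, adjusted p = 0.0114 and 0.00941, edgeR). The count of 2 lower genes became 1 without untreated replicate 1, without untreated replicate 3 or without r-CRMP2 replicate 2, and 0 without r-CRMP2 replicate 3. BOK, HRK and BMF did not pass. BCL2A1, BCL2L10, BCL2L14 and BCL2L15 had at most 4 counts in any library and were not tested. For BCL2A1, a guardian, no count was seen in the 6 libraries.

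Downstream of the mitochondria, the list of the apoptosome, caspases and inhibitors of apoptosis (IAPs) had 6 of 18 genes higher and 5 lower (28.2% and 30.1% of all genes tested), with a median log2 fold change of 0.03. CASP9, the caspase that the apoptosome activates, fell from 43.7, 45.3 and 47.7 to 21.6, 21.2 and 19.4 CPM (log2 fold change -1.14, standard error 0.06, adjusted p = 4.82e-10, edgeR). CASP6, an executioner caspase, and AIFM1, a flavoprotein of the intermembrane space, had log2 fold changes of -1.01 and -0.57 (adjusted p = 0.000528 and 3.43e-07, edgeR). The largest rises were in BIRC3 (0.90, adjusted p = 2.32e-07, edgeR) and BIRC2 (0.55, adjusted p = 1.40e-06, edgeR), which encode the ubiquitin ligases cIAP2 and cIAP1, and in VDAC2 (0.87, adjusted p = 3.52e-09, edgeR), a channel that holds BAK1 protein at the outer membrane. APAF1 and CYCS, the scaffold and trigger of the apoptosome, had log2 fold changes of 0.04 and 0.01 and did not pass. With library size alone, 4 genes of this list were higher and 11 lower.

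The death receptor pathway, which meets the family at BID, had 5 of 11 genes tested lower and 2 higher (30.1% and 28.2% of all genes tested), and all 5 falls passed a log2 fold change of 1, as 14.0% of all genes did in either direction. RIPK1, the kinase of the receptor complex, fell from 13.4, 14.3 and 18.0 to 3.97, 3.03 and 2.35 CPM (log2 fold change -2.30, standard error 0.25, adjusted p = 1.11e-09, edgeR). The others were CASP10 (-1.97, counting error 0.25, adjusted p = 2.92e-05, edgeR), the ligand TRAIL (TNFSF10, -1.74, adjusted p = 1.56e-09, edgeR), the adaptor FADD (-1.45, adjusted p = 4.92e-10, edgeR) and CASP8 (-1.20, adjusted p = 1.47e-07, edgeR), the last a protease that cleaves BID. FADD, CASP8 and CFLAR, like APAF1, CYCS, BOK, HRK and BMF above, lie outside the rule for named genes and were added after their values were seen. The rises were in the receptors TNFRSF10B (0.47, adjusted p = 2.61e-06, edgeR) and FAS (0.43, adjusted p = 0.000165, edgeR), of which FAS did not pass with library size alone (0.12) and TNFRSF10B did not with TPM in limma (0.14). With library size alone, 1 gene of this list was higher and 8 were lower. CFLAR, whose product FLIP blocks caspase-8, had a log2 fold change of 0.13 and did not pass.

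Among 16 regulators of the members, 4 were higher and 4 lower (28.2% and 30.1% of all genes tested), with a median log2 fold change of -0.11. FOXO3, a transcription factor with BCL2L11 and BBC3 among its known targets, rose from 40.2, 40.2 and 38.6 to 80.7, 86.1 and 94.2 CPM (log2 fold change 1.13, standard error 0.07, adjusted p = 1.31e-10, edgeR). DDIT3 (0.58) and FOXO1 (0.57) passed under TMM (adjusted p = 0.00253 and 0.00409, edgeR) but not with library size alone (0.26 and 0.27). TRIB3 had -0.30 (adjusted p = 0.00103, edgeR), and BTRC, a substrate receptor of the ubiquitin ligase that marks BIM and MCL1 proteins, had -1.25 (adjusted p = 1.68e-08, edgeR). With library size alone, 1 gene of this list was higher and 11 were lower.

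**Figure D5:**
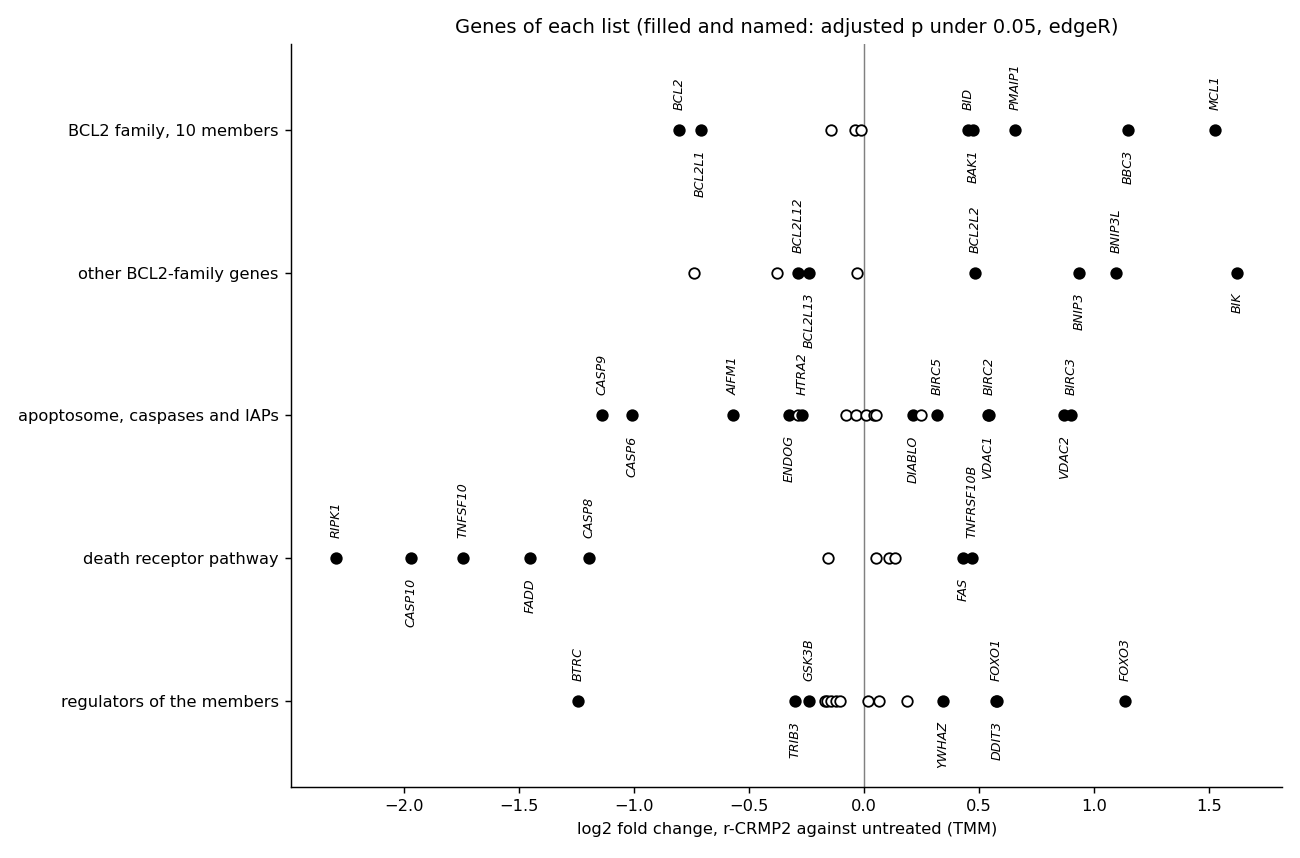
Log2 fold change, r-CRMP2 against untreated (TMM), of the reported genes of the 5 lists. Filled and named points have an adjusted p under 0.05 (edgeR). The members spread from -0.80 to 1.53, and the 5 falls of the death receptor list, from -2.30 to -1.20, lie further out than any fall of a member.

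Promoters were compared because the study linked r-CRMP2 to HIF-1, which binds the core ACGTG or GCGTG. RefSeq promoters (GRCh38.p14, 250 bases before to 50 after the start) were found for 9 of 10 members, MCL1 being the one without an entry. These 9 genes have 15 promoters, of which BID has 5. On either strand, 11 of the 15 promoters held ACGTG or GCGTG, while 48.4% of all 35116 promoters did. By gene, 7 of the 9 held a match in at least 1 promoter, as did 52.4% of all 27305 genes, and a gene with more promoters has more chances of a match. The stretches of the rising genes BBC3, PMAIP1 and BID and of the falling gene BCL2L1 are shown, with the matched bases in capitals and the distance to the start of each promoter that holds them. CACGTG, the E-box, holds ACGTG on both strands.
BBC3 (chr19:47232886-47232907, minus strand, 232 bases upstream): ggagatttCACGTGagatatag
PMAIP1 (chr18:59899805-59899825, plus strand, 183 bases upstream): ggtcgggaGCGTGtccgggca
PMAIP1 (chr18:59899963-59899983, plus strand, 25 bases upstream): ggacaaaaGCGTGgtctctgg
BID (chr22:17774076-17774097, minus strand, 106 and 47 bases upstream of 2 of its starts): gtcctctcCACGTGgcctgggg
BID (chr22:17774495-17774515, minus strand, 38 and 12 bases upstream of 2 other starts): gggcccggGCGTGgggggccg
BCL2L1 (chr20:31722920-31722940, minus strand, 64 bases upstream of 1 of its 2 starts): gccaagggGCGTGcaagagag

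The promoter with most such stretches was that of BAX, with 5, and BAX did not pass the test. BCL2L11 and BAD, which did not pass either, had 2 and 1. BAK1, which rose, and BCL2, which fell, had none. These calls are those under TMM, and those of BAX, BCL2L11, BAD and BAK1 differed with library size alone. Whether the matches bear on the changes was not tested. The forkhead core GTAAACA was found in the promoter of BCL2L11 only, against 3.4% of all promoters. A match is a description of the letters in this window, and no binding was measured.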

How the data were processed

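Polyadenylated RNA of 6 A2780 libraries (3 untreated, 3 r-CRMP2) was sequenced in pairs of reads. The authors deposited, per gene, a raw count without normalization and a TPM value. The deposited TPM equalled the count over the deposited length, rescaled, to within 4.72e-06. The submitters' processing notes name FastQC, HISAT2, DESeq2 and hg19; the counting tool, the annotation and strand use are not given in the sources used here. In the files, 27 gene names read as dates.

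Counts were compared with edgeR 4.0.16 (quasi-likelihood test, TMM, filterByExpr, R 4.3.3), with Benjamini-Hochberg adjustment over the 16222 genes tested and a threshold of 0.05. A log2 fold change of 1 was applied as a second threshold. Standard errors come from log2 CPM of the replicates (prior count 2). Library totals of 21888530 to 25711353 set the counting error, given for MCL1, BCL2 and some genes with few counts. The members and lists were chosen with earlier results of these data known. Named by rule were all members, the other BCL2-family genes that passed or were too low to test, and in each other list the 3 largest rises and falls that passed. Alternatives were RLE size factors, library size alone, DESeq2 1.42.0, the low-count filter dropped or replaced by a minimum of 10 counts in each library, a replicate block, limma 3.58.1 on log2(TPM + 0.5), and each library left out in turn. The result of 1 gene of the regulators list is not reported here, although the list's counts include it.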

Additional observations from a re-analysis of the deposited data

How the results depend on the processing

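MCL1, BBC3, PMAIP1, BCL2 and BCL2L1 kept their direction and passed in all 13 alternative fits. BAK1 and BID passed in 11, losing the call with library size alone and with TPM in limma, where BAX, BAD and BCL2L11 were lower. The members called were 5 higher and 2 lower. They were 3 and 5 with library size alone, 3 and 5 with TPM in limma, and 2 and 0 with a log2 fold change past 1 (edgeR; also 0 at an unadjusted p under 0.05 and with DESeq2). Over all genes, 4574 higher and 4875 lower became 2173 and 8439 with library size alone, 2033 and 8378 with TPM in limma, and 831 and 1437 past a log2 fold change of 1. Among genes that had not passed, BCL2L11 changed sign with RLE size factors (0.0049), with DESeq2 (0.0049) and when untreated replicate 3 or r-CRMP2 replicate 2 or 3 was left out (-0.082 to 0.031 over the 6 omissions), and BAD without r-CRMP2 replicate 1 (-0.084 to 0.060). The ratios were recomputed with counts in place of TPM and with each library left out in turn, and all 42 differences kept their sign. That outcome was fixed in advance, since their groups do not overlap and counts give the same differences as TPM. It is therefore no evidence of stability. The replicate numbers gave no evident pairing (correlations of -0.02, 0.0038 and -0.03 between same-numbered deviations). With the replicate block, 5 members were higher and 2 lower, and no member's call changed. Among the members, depth limits BCL2 most, whose counting error was 0.09 beside a standard error of 0.13 on the log2 scale.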
